A study of Mus musculus with 6 samples.

Results

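Skeletal muscle genes were followed in mouse ear skin by RNA sequencing of poly(A) RNA, as a group of 43 genes of the sarcomere, of calcium handling and of energy supply to contraction. The 43 genes were taken by symbol from the deposited table, where all 43 were found among 18422 genes. Ear skin was collected at postnatal day 21. The 3 ecko samples came from mice whose endothelial cells had lost Vegfr2 (official symbol Kdr). The 3 control samples came from mice described in the series as littermates. All 6 samples came from mice given tamoxifen, which induces the deletion. The series gives schedules that start at postnatal day 1 or day 10 without saying which applied here. The sources used here do not name the Cre line, the strain or the deleted exon. The separate sample titles carry no animal numbers, so the p-values measure only the spread between these 3 and 3 samples.

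Skeletal muscle fibres contract when the dihydropyridine receptor of the surface membrane opens the ryanodine receptor of the internal calcium store, and the released calcium lets myosin pull on actin. Each fibre type is built from its own isoforms. Fast fibres carry the myosins called IIb, IIx and IIa with fast troponins and light chains, slow fibres carry slow myosin with slow troponins and light chains, and developing fibres carry embryonic and perinatal myosins. The ear holds small striated muscles beneath the skin, so whole ear skin contains their RNA. The 43 genes were assigned to working lists of 14 fast-fibre genes, 8 slow-fibre genes, 1 perinatal myosin gene (Myh8) and 20 shared genes. Which fibres made each RNA was not measured. A gene of any list, the shared list included, may be made at unequal levels in several fibre types. In bulk tissue, fewer muscle fibres and less RNA of these genes per fibre cannot be told apart.

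A group of 4 neighbouring myosin heavy chain genes hold a contrast to which the results return. Every ecko library lay below every control for Myh4 and above every control for Myh8. Myh4 did not pass the test used below (edgeR adjusted p = 0.0673), and Myh8 was at the edge of its threshold (edgeR adjusted p = 0.0494). In the RefSeq annotation of GRCm38.p6 they lie on chromosome 11 in the order Myh2 (67171027 to 67197517), Myh1 (67200102 to 67224577), Myh4 (67237812 to 67260447) and Myh8 (67277124 to 67308634). The 250 bases before each RefSeq start are shown with 4 motifs of muscle genes in capitals: the E-box CANNTG bound by myogenic factors, the MEF2 site, the CArG box bound by serum response factor, and the MCAT motif CATTCC. Both strands were searched, and no 2 of the marked matches overlap.
Myh2 (chr11:67170777-67171026, plus strand): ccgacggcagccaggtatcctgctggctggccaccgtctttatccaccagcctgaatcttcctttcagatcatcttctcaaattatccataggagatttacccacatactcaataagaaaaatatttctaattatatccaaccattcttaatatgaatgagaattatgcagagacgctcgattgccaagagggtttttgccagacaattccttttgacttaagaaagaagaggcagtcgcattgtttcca
Myh1 (chr11:67199852-67200101, plus strand): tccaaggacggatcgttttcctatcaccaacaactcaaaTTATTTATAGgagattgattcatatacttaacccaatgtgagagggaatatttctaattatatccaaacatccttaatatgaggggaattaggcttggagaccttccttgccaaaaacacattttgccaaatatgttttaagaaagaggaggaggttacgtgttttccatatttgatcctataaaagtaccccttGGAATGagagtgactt
Myh4 (chr11:67237562-67237811, plus strand): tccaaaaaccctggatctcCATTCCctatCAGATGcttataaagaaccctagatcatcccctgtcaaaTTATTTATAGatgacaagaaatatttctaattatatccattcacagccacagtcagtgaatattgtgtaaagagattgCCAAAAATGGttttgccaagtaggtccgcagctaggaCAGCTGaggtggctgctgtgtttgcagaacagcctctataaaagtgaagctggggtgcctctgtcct
Myh8 (chr11:67276874-67277123, plus strand): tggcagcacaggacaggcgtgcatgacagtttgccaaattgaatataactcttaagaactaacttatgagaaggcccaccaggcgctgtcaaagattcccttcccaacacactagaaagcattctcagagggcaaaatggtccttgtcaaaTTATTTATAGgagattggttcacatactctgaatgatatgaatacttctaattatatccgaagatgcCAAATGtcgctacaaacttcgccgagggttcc
The Myh1, Myh4 and Myh8 windows hold the same MEF2 match, TTATTTATAG, which starts 211, 182 and 99 bases before the start. That exact run is present in 37 of 32851 RefSeq promoter windows of this length (0.113%). Myh4 has 2 E-boxes, 1 CArG box and 1 MCAT motif besides, Myh8 has 1 E-box, Myh1 has 1 MCAT motif, and these letters are not in the Myh2 window. All 4 windows share the run ttctaattatatcc, found in 4 of the 32851 windows. A promoter window was matched for 32 of the 43 genes, with 38 windows in all, and none was matched for Tcap or Myoz1. Of these 38 windows, 6 (15.8%) hold a MEF2 site against 2.92% of all windows, and 5 (13.2%) a CArG box against 1.47%. The MCAT motif is in 26.3% against 12.6%, and an E-box in 81.6% against 66.2%. The 6 include the Myh1, Myh4 and Myh8 windows with their identical match, and the 5 count 1 CArG box again in overlapping windows of Ldb3. The windows are thus not all separate, and the shares were not tested. A match describes letters and not a bound site.

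The libraries held 17255416 to 18054696 estimated counts, and the 43 genes made up 1.85%, 1.39% and 1.27% of the counts of controls 1 to 3, against 1.16%, 1.22% and 1.09% of those of ecko 1 to 3. Kdr had 27.4, 29.1 and 33.7 CPM (counts scaled to a common library size) in controls and 3.36, 2.05 and 2.35 CPM in ecko skin. Keratinocyte markers summed to 23235 to 24912 CPM in controls and 26025 to 28955 CPM in ecko skin, with the groups apart. Of these 6 markers, 1 rose (Krt1, log2 fold change 0.76, SE 0.15, edgeR adjusted p = 0.0376), beside 0.686% of all genes. Fibroblast markers summed to 25549 to 31347 CPM in controls and 23943 to 28134 CPM in ecko skin. Both marker lists were abundant, as the skin label implies. Y-linked reads were at 24 and 36 in the third library of each group and at 3712 to 4390 in the other 4, so each group held 2 male and 1 female library. All 7 endothelial markers, which include the targeted Kdr, fell, beside 1.08% of all genes. Their sum was 309.4 to 323.6 CPM in controls and 175.8 to 177.7 CPM in ecko skin.

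The comparison asked how the muscle genes of ear skin differed after endothelial loss of Vegfr2. Fast-fibre and shared muscle genes had lower values in ecko skin, slow-fibre genes lay around 0, and the perinatal myosin gene rose. Of the 43 genes, 3 fell (Tcap, Ryr1 and Myoz1) and 1 rose (Myh8) in the test over all 14866 genes tested, of which 1.08% fell and 0.686% rose (edgeR quasi-likelihood test, adjusted p under 0.05). All 43 passed the filter on low counts, with at least 27 counts in every library. The log2 fold change was below 0 for 37 of the 43, against 50.5% of all genes, and the median was -0.34 against 0.00 over all genes. In 19 of the 43 every ecko library lay below every control, against 10.8% of all genes, and in 2 every ecko library lay above, against 10.2%. An unadjusted p under 0.05 was reached in the lower direction by 25 of the 43 (7.95% of all genes) and in the higher direction by 2 (7.41%). The genes share 1 tissue source, so their common direction is not that many separate observations. They were also chosen with earlier results of these data known, so the comparisons with all genes are descriptions.

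**Figure D1:**
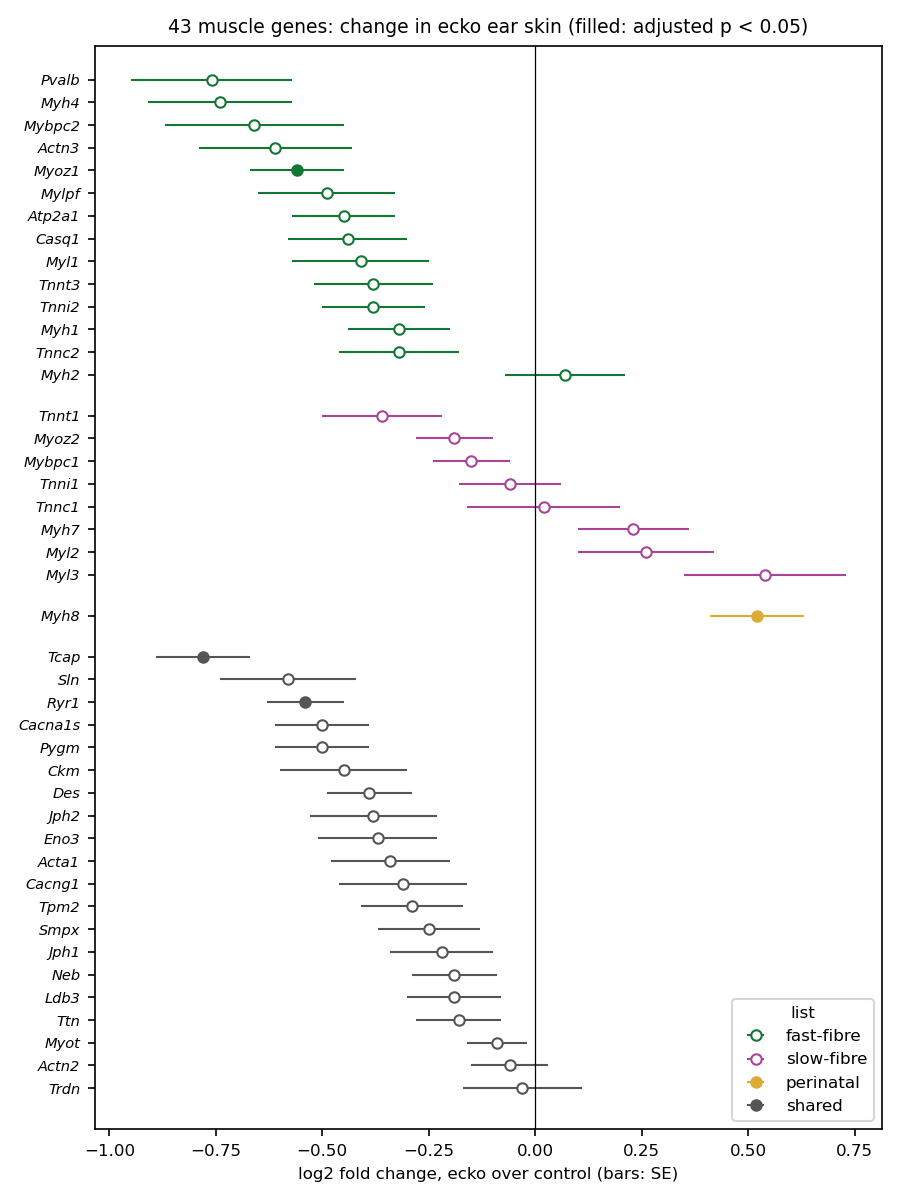
The log2 fold change of ecko over control (horizontal axis, log2 units) is shown for each of the 43 genes with its SE, grouped as fast-fibre, slow-fibre, perinatal and shared, and filled where the adjusted p was under 0.05. Tcap, Ryr1 and Myoz1 are filled on the left and Myh8 on the right, and 13 of 14 fast-fibre genes lie left of 0.

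The fast-fibre genes had lower values almost throughout. Of the 14, Myoz1 alone passed the test over all genes, 13 had values below 0, 12 did not overlap between groups with ecko below control (10.8% of all genes), and the median was -0.45. The values ran from -0.76 for Pvalb to 0.07 for Myh2. Myoz1 (GRCm38.p6 chromosome 14, 20649102 to 20656540) encodes calsarcin-2, a Z-disc protein of fast fibres that binds calcineurin. It had 103.8, 83.1 and 74.1 CPM in controls 1 to 3 and 59.6, 61.1 and 56.8 CPM in ecko 1 to 3. All 3 ecko libraries lay below the lowest control, and the log2 fold change was -0.56 (SE 0.11, edgeR adjusted p = 0.0379). That call ended without control 2 (adjusted p = 0.0808), ecko 1 (0.142), ecko 2 (0.123) or ecko 3 (0.153).

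The fast myosin motor genes differed among themselves. Myh4, the gene of myosin IIb of the fastest fibres, had 1114, 715.7 and 683.6 CPM in controls 1 to 3 and 513.2, 543.1 and 448.9 CPM in ecko 1 to 3. The groups did not overlap, with control 1 far above the rest, and the log2 fold change was -0.74 (SE 0.17, edgeR adjusted p = 0.0673). Without control 1 it was -0.48 and passed (adjusted p = 0.0391), and it also passed without control 3 (0.0285). Myh1, the gene of myosin IIx, had 1558, 1118 and 1183 CPM in controls and 1022, 1074 and 997.9 CPM in ecko skin. Its highest ecko library lay just below its lowest control (log2 fold change -0.32, SE 0.12, edgeR adjusted p = 0.246). Myh2, the gene of myosin IIa of fast oxidative fibres, had 211.8, 235.4 and 146.1 CPM in controls and 195.8, 222.3 and 202.7 CPM in ecko skin. Its groups overlapped fully, at 0.07 (SE 0.14, edgeR adjusted p = 0.882), and the value was -0.11 without control 3.

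The other genes of the fast contractile apparatus had values from -0.66 to -0.32. Mylpf, the regulatory light chain gene, was the highest of the fast-fibre genes per kilobase of transcript, at a mean of 794.6 CPM per kb. It had 932.8, 621.8 and 575.6 CPM in controls and 529.0, 531.6 and 461.4 CPM in ecko skin. The groups did not overlap, and the log2 fold change was -0.49 (SE 0.16, edgeR adjusted p = 0.191). Tnnt3, the fast troponin T gene, had 959.2, 683.4 and 641.7 CPM against 616.2, 597.5 and 538.7 CPM, and Myl1, an alkali light chain gene, had 920.5, 639.1 and 557.9 CPM against 537.8, 556.2 and 502.0 CPM. In both, control 1 was the highest library, and the gap between control 3 and the top ecko library was small. The fast troponin I and C genes Tnni2 and Tnnc2 had log2 fold changes of -0.38 and -0.32, and the myosin-binding protein gene Mybpc2 had -0.66 (SE 0.21). Actn3, the alpha-actinin gene of fast glycolytic fibres, had -0.61 (SE 0.18). Myl1 shares 9.36% of its 100-base windows with a pseudogene, though its deposited counts were whole in every library. The counts of Mylpf, and of Eno3 in the shared list, were not whole in 6 libraries, and those of Mybpc2 in 5. How reads were divided for these genes was not tested.

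The fast-fibre genes of calcium handling had values from -0.76 to -0.44. Pvalb encodes parvalbumin, which binds calcium and speeds relaxation in the fastest fibres. It had 339.2, 232.2 and 184.9 CPM in controls 1 to 3 and 150.3, 164.9 and 131.5 CPM in ecko 1 to 3. The groups were apart, but the controls spanned a wide range, and the log2 fold change of -0.76 (SE 0.19) did not pass (edgeR adjusted p = 0.0876). Atp2a1, the calcium pump SERCA1 of fast fibres, had 1303, 1413 and 1158 CPM in ecko skin against 2055, 1679 and 1554 CPM in controls (-0.45, SE 0.12, edgeR adjusted p = 0.112). Casq1, which buffers calcium inside the store, had -0.44 (SE 0.14).

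The 8 slow-fibre genes had no common direction. None rose and none fell over all genes, 4 values lay above 0 and 4 below, and the median was -0.02. At an unadjusted p under 0.05 there was 1 gene in each direction, Tnnt1 lower (7.95% of all genes) and Myl3 higher (7.41%). DESeq2 called none of the 8, against 1.5% of all genes lower and 1.27% higher. Myh7, the slow myosin gene, had 29.8, 21.7 and 24.6 CPM in controls and 31.1, 25.6 and 32.5 CPM in ecko skin. Its groups overlapped through control 1 (log2 fold change 0.23, SE 0.13, edgeR adjusted p = 0.436). Myl3, a slow alkali light chain gene, was low at 1.96, 1.82 and 1.53 CPM in controls and 2.38, 2.71 and 2.63 CPM in ecko skin. Its 3 ecko libraries all lay above the controls, at 0.54 (SE 0.19, edgeR adjusted p = 0.224), and these values rest on 27 to 49 counts.

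The slow genes that are most abundant per kilobase lay below 0. Mybpc1, the slow myosin-binding protein gene, had 397.4, 324.8 and 306.4 CPM in controls and 298.3, 319.1 and 312.4 CPM in ecko skin. The groups overlapped, at -0.15 (SE 0.09, edgeR adjusted p = 0.516). Its mean of 83.2 CPM per kb lay above the 20.5 of the fast Mybpc2 and the 4.42 of the slow Myh7. Which fibres made the Mybpc1 RNA was not tested, so its place in the slow-fibre list rests on its name. Tnnt1, the slow troponin T gene, had 54.2, 43.4 and 38.6 CPM against 30.1, 34.9 and 40.9 CPM (-0.36, SE 0.14, edgeR adjusted p = 0.248). Here the third ecko library lay above the third control. Myoz2, the calsarcin gene of slow and heart muscle, had 46.8, 40.2 and 41.3 CPM against 41.9, 35.8 and 35.0 CPM (-0.19, SE 0.09). The slow troponin I and C genes Tnni1 and Tnnc1 were at -0.06 (SE 0.12) and 0.02 (SE 0.18), and Myl2, the slow regulatory light chain gene, at 0.26 (SE 0.16).

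Myh8, the perinatal myosin gene, was the 1 member that rose. It had 36.8, 30.8 and 42.0 CPM in controls 1 to 3 and 52.4, 47.9 and 56.7 CPM in ecko 1 to 3. Every ecko library lay above every control, and the log2 fold change was 0.52 (SE 0.11, edgeR adjusted p = 0.0494). The call was at the edge of the threshold and ended without control 1 (adjusted p = 0.106), control 2 (0.110), ecko 1 (0.169), ecko 2 (0.109) or ecko 3 (0.193), with a log2 fold change of 0.41 to 0.63 over all 15 alternatives. Myh3, the embryonic myosin gene of the same cluster and not one of the 43, had 92.7, 75.2 and 72.9 CPM in controls and 60.9, 51.1 and 65.8 CPM in ecko skin (-0.44, SE 0.11, edgeR adjusted p = 0.104). The 2 developmental myosin genes thus had values of opposite sign.

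All 20 shared genes had values below 0, from -0.78 for Tcap to -0.03 for Trdn, with a median of -0.32. Of these, 2 (Tcap and Ryr1) fell in the test over all genes, beside 1.08% of all genes. In 7 the groups did not overlap, with ecko below control (10.8% of all genes). Tcap (chromosome 11, 98383811 to 98384953) encodes telethonin, which caps titin at the Z-disc. It had 187.7, 147.1 and 139.8 CPM in controls 1 to 3 and 96.1, 97.6 and 83.4 CPM in ecko 1 to 3. The lowest control was well above the highest ecko library, and the log2 fold change was -0.78 (SE 0.11, edgeR adjusted p = 0.00941). Tcap was the only one of the 43 that passed in all 15 alternatives, with a log2 fold change between -0.86 and -0.63 and an adjusted p of at most 0.0496. In the 4 male libraries its difference of mean log2 CPM was -0.78, and between the 2 female libraries it was -0.75.

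The structural sarcomere genes of the shared list had differences of unequal size. Acta1, the skeletal actin gene, was the most abundant of the 43 per kilobase, at a mean of 1521 CPM per kb. It had 3018, 2323 and 2023 CPM in controls and 1946, 2053 and 1837 CPM in ecko skin, so ecko 2 lay just above control 3 (log2 fold change -0.34, SE 0.14, edgeR adjusted p = 0.284). Tpm2, the beta-tropomyosin gene, had 809.5, 638.5 and 550.7 CPM against 549.5, 560.0 and 521.3 CPM, also with an overlap at control 3. The giant scaffold genes Ttn and Neb had -0.18 (SE 0.10) and -0.19 (SE 0.10), and the Z-disc genes Ldb3, Myot and Actn2 had -0.19, -0.09 and -0.06. Smpx, which encodes a small muscle protein, had -0.25 (SE 0.12). Des, the desmin gene, had -0.39 (SE 0.10, edgeR adjusted p = 0.0839) and did not overlap between groups. Desmin is also made by smooth muscle, whose 8 markers summed to 247.6 to 279.0 CPM in controls and 214.8 to 226.7 CPM in ecko skin. Of those 8 markers, 1 fell (Smtn, -0.31, SE 0.06, edgeR adjusted p = 0.0260), beside 1.08% of all genes. Its edgeR adjusted p was 0.0577 to 0.113 without control 1, control 2 or any 1 ecko library. None of the 8 was at 0, and their part in the Des value was not tested.

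Genes of the triad, where the surface membrane meets the calcium store, were led by Ryr1. Ryr1 (chromosome 7, 29003340 to 29125179) encodes the calcium release channel of the store. It had 181.8, 149.9 and 146.3 CPM in controls and 110.5, 117.3 and 101.6 CPM in ecko skin. The groups were apart, and the log2 fold change was -0.54 (SE 0.09, edgeR adjusted p = 0.0213). The call ended without ecko 1 (adjusted p = 0.0957), ecko 2 (0.0675) or ecko 3 (0.0931) and in the male libraries alone (0.0627). Cacna1s, the voltage sensor gene of the dihydropyridine receptor, had -0.50 (SE 0.11, edgeR adjusted p = 0.0618), and its gamma subunit gene Cacng1 had -0.31 (SE 0.15). The junctophilin genes Jph2 and Jph1, whose products tether the membranes, had -0.38 and -0.22, and Trdn, the triadin gene, had -0.03 (SE 0.14). Sln, the gene of the SERCA inhibitor sarcolipin, had 30.8, 20.7 and 24.9 CPM in controls and 20.2, 16.3 and 14.6 CPM in ecko skin (-0.58, SE 0.16, edgeR adjusted p = 0.121).

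The genes that supply energy for contraction lay in the same range. Ckm, the muscle creatine kinase gene, had 909.8, 682.1 and 572.8 CPM in controls and 547.7, 571.0 and 467.2 CPM in ecko skin. Its highest ecko library was just under its lowest control (log2 fold change -0.45, SE 0.15, edgeR adjusted p = 0.196). Pygm, the muscle glycogen phosphorylase gene, had -0.50 (SE 0.11, edgeR adjusted p = 0.0665), and Eno3, the muscle enolase gene, had -0.37 (SE 0.14).

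For the fast-fibre and shared lists the range of the controls was larger than the difference between group means, which was -0.44 and -0.32. Averaged over the 14 fast-fibre genes, the log2 CPM around each gene's mean was 0.58, 0.14 and -0.06 log2 units for controls 1 to 3, against -0.19, -0.13 and -0.34 for ecko 1 to 3. The groups were narrowly apart, while the controls spanned 0.64 log2 units. For the shared genes the levels were 0.42, 0.09 and -0.03 for the controls, against -0.16, -0.09 and -0.24 for ecko skin. For the slow-fibre genes they were 0.15, -0.12 and -0.09 against -0.05, -0.03 and 0.14, with full overlap. Control 1 thus had the most muscle RNA of all 6 libraries in each of the 3 lists. Without it, the median log2 fold change was -0.23 for fast-fibre genes, -0.16 for shared genes and 0.06 for slow-fibre genes. The fast-fibre level minus the slow-fibre level was 0.43, 0.25 and 0.03 for the controls, against -0.13, -0.10 and -0.48 for ecko skin, so it was lower in every ecko library.

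**Figure D2:**
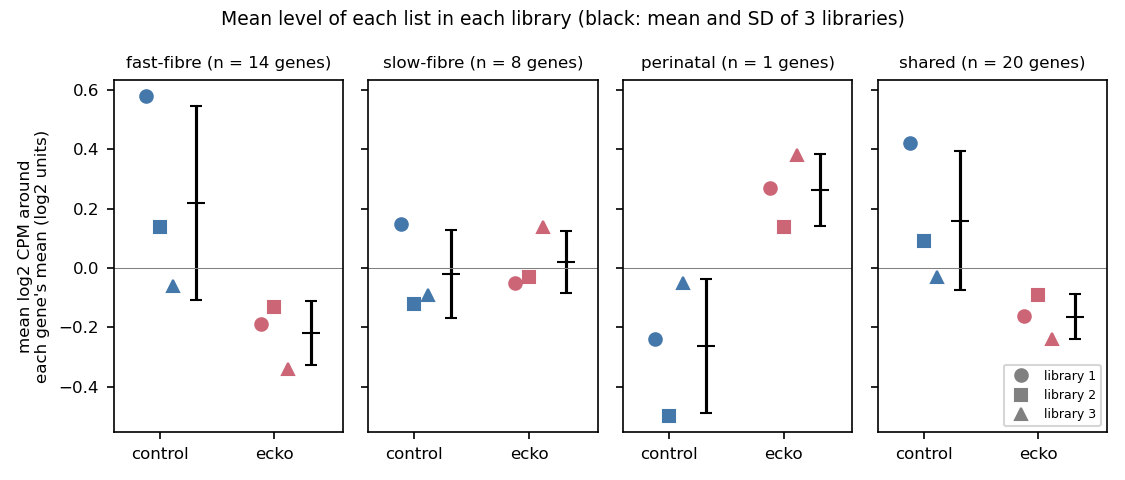
Each point is the mean log2 CPM of a gene list in 1 library around each gene's own mean (vertical axis, log2 units), with the mean and SD of the 3 libraries per group in black. Control 1 stands at 0.58 in the fast-fibre panel, and the slow-fibre panel overlaps between groups.

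The 2 sexes gave medians of the same sign for fast-fibre and shared genes. Between male libraries the median difference of mean log2 CPM was -0.49 for fast-fibre, -0.40 for shared and -0.08 for slow-fibre genes. Between the 2 female libraries it was -0.30, -0.12 and 0.16. A test of the difference between sexes called none of the 43 genes (edgeR, lowest adjusted p = 0.733, with 3 at an unadjusted p under 0.05), and it rests on 1 female library per group. With sex as a term in the fit, 8 of the 43 fell and 1 rose, against 1.11% and 0.686% of all genes. The 5 added to Tcap, Ryr1 and Myoz1 were Myh4, Pvalb, Cacna1s, Des and Pygm.

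The number of the 43 genes that passed changed with the test and with the libraries. DESeq2 called 10 lower and 1 higher, against 1.5% and 1.27% of all genes, adding Atp2a1, Casq1, Tnni2, Cacna1s, Des, Pygm and Sln to the 3 that fell. Without a filter on low counts, 5 fell and 1 rose, against 0.956% and 0.659% of all genes. At an adjusted p under 0.1, 8 fell, against 1.81%, and 1 rose, against 1.22%. Without control 3, 13 fell and 1 rose, against 1.61% and 1.1%. Tcap alone fell without ecko 1, ecko 2 or ecko 3, against 0.333%, 0.227% and 0.447% of all genes, and none of the 43 rose, against 0.16%, 0.147% and 0.433%. In the male libraries, Tcap alone fell and none rose, against 0.61% and 0.557%. With upper-quartile factors 3 fell and none rose, against 1.16% and 0.579%, and with limma-voom 3 fell and none rose, against 1.03% and 0.558%.

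Myosin heavy chain usage was compared per kilobase of transcript as each gene's share of the summed level of the 5 genes. Myh1 held the largest share, at 52.6%, 52.5% and 56.7% for controls 1 to 3, against 56.2%, 56.0% and 57.3% for ecko 1 to 3. Myh4 held 38.0%, 34.0% and 33.1% against 28.5%, 28.6% and 26.0%, lower in every ecko library. Myh2 held 7.15%, 11.1% and 7.0% against 10.8%, 11.6% and 11.6%, with control 2 inside the ecko range. The slow Myh7 held 0.982%, 0.997% and 1.15% against 1.67%, 1.3% and 1.82%, and Myh8 held 1.23%, 1.43% and 1.99% against 2.85%, 2.47% and 3.22%. Both lay higher in every ecko library. The 5 shares sum to the whole in each library, so they are not independent.

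**Figure D3:**
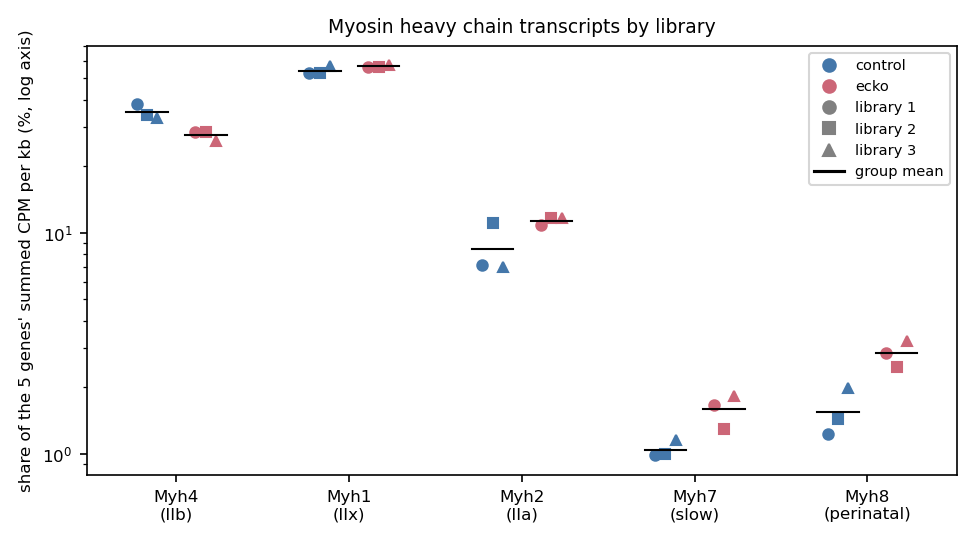
The share of each myosin heavy chain gene in the summed CPM per kilobase of the 5 genes (vertical axis, percent, log scale) is drawn for each library, with the group mean as a black line. Myh4 has a mean of 35.1% in controls and 27.7% in ecko skin, and Myh8 of 1.55% and 2.85%.

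These myosin genes are similar in sequence, and their estimated counts were not whole numbers in any library. Of the 100-base windows of the longest coding transcript, 9.73% of Myh1, 9.17% of Myh2, 3.85% of Myh4 and 6.61% of Myh8 also occur in transcripts of other myosin heavy chain genes of the cluster. Myh7 shares 11.2% with Myh6, the cardiac myosin gene, which had 7 to 10 counts per library. The values of these 5 genes therefore depend in part on how shared reads were divided, and the sources used here do not state the read length.

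Ratios of fast-fibre genes to their slow or shared counterparts split by protein. Per kilobase, the ratio of Actn3 to Actn2 was 0.643, 0.490 and 0.472 for controls 1 to 3, against 0.396, 0.365 and 0.347 for ecko 1 to 3. Myoz1 to Myoz2 was 2.03, 1.89 and 1.64 against 1.3, 1.56 and 1.49, and Mybpc2 to Mybpc1 was 0.342, 0.274 and 0.230 against 0.223, 0.213 and 0.165. In each of these 3 pairs the fast partner had the smaller share in every ecko library. The troponin pairs did not separate the groups. Tnnt3 to Tnnt1 was 17.4, 15.4 and 16.3 for the controls, against 20.1, 16.8 and 12.9 for ecko skin, Tnni2 to Tnni1 was 34.9, 29.8 and 26.8 against 29.3, 26.1 and 19.7, and Tnnc2 to Tnnc1 was 63.6, 76.9 and 38.6 against 46.1, 49.3 and 40.0.

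To set aside the overall amount of muscle RNA as a description, each gene was expressed relative to the mean log2 CPM of the shared genes in the same library, a scale on which 0.935% of all genes lay lower and 47.3% higher in every ecko library. On this scale Tcap, set against the other shared genes, was at 0.08, 0.06 and 0.10 for controls 1 to 3, against -0.32, -0.38 and -0.46 for ecko 1 to 3. Its controls differed by hundredths of a log2 unit, and its ecko values lay far below. Myh4, Pvalb, Myoz1, Atp2a1 and Casq1 were the 5 fast-fibre genes whose ecko values were all below the controls, with differences of -0.39, -0.40, -0.22, -0.12 and -0.10. Among shared genes the same held for Tcap, Ryr1 (-0.22), Cacna1s (-0.18) and Pygm (-0.17). The remaining 9 fast-fibre genes overlapped, and the median difference of the 14 was -0.11. Higher in every ecko library were Myh8 (0.85), the slow-fibre genes Myl3 (0.86), Myl2 (0.56), Myh7 (0.55) and Mybpc1 (0.18), and the shared genes Actn2 (0.28), Myot (0.25), Neb (0.15) and Ldb3 (0.15). That is 9 of 43 higher, or fewer than the 47.3% of all genes, and 9 of 43 lower. The scale is built from the same genes, so these counts carry no test.

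**Figure D4:**
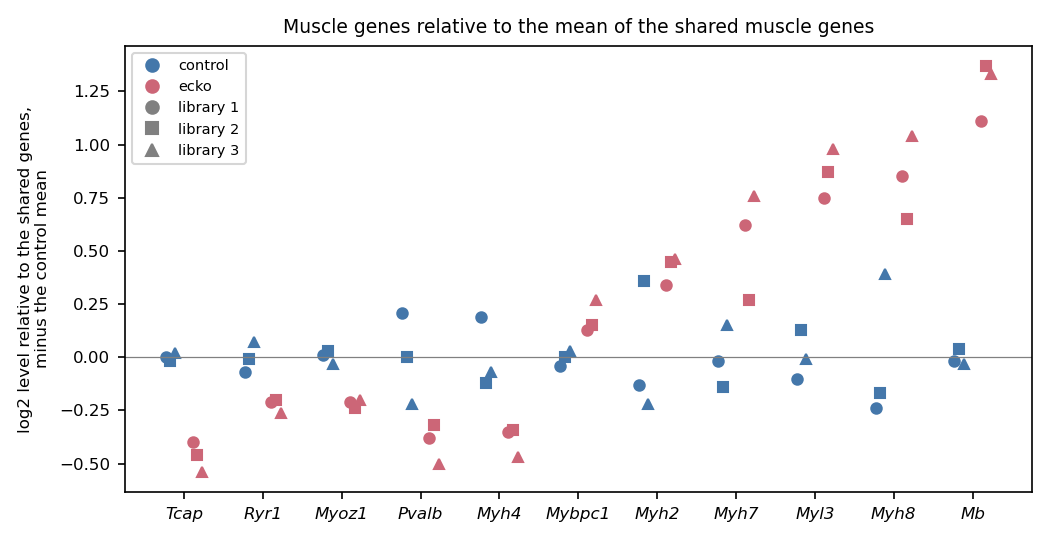
Each point is the log2 level of a gene in 1 library relative to the mean of the shared muscle genes, minus the control mean (vertical axis, log2 units). Tcap lies below 0 in all 3 ecko libraries, while Myh8 and Mb lie above their controls, by mean differences of 0.85 and 1.27.

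Other muscle genes outside the 43 were read from 6 further lists, of which 94 of 98 genes were tested. Their median log2 fold change was -0.16, 3 fell and 2 rose, beside 1.08% and 0.686% of all genes. Among 34 other sarcomere genes none rose or fell, with a median of -0.22. At an unadjusted p under 0.05, 16 of them were lower (7.95% of all genes). DESeq2 called 6 of the list lower (1.5% of all genes), Mylk4 among them. Among 17 other triad and membrane genes, 2 fell and none rose, with a median of -0.28. These were Dysf, the gene of the membrane repair protein dysferlin (22.4 ± 1.99 to 14.9 ± 0.442 CPM, SD, n = 3 each, edgeR adjusted p = 0.0169), and Clcn1, the muscle chloride channel gene (-0.60, SE 0.12, edgeR adjusted p = 0.0394). Among 15 other energy genes Ampd1, the muscle AMP deaminase gene, fell by 0.72 (SE 0.13, edgeR adjusted p = 0.0318), and the median was 0.01. The 14 myogenic regulators had a median of -0.18 and no call by edgeR or DESeq2. At an unadjusted p under 0.05, 3 were lower (7.95% of all genes), and Myog was at -0.50 (SE 0.17, edgeR adjusted p = 0.207). Of 8 endplate genes, 1 rose, Colq, which anchors acetylcholinesterase at the endplate (0.60, SE 0.12, edgeR adjusted p = 0.0414), and DESeq2 did not call it. The calls of Dysf, Clcn1, Ampd1 and Colq each ended without control 2 or any 1 ecko library, those of Clcn1 and Colq also without control 1, and that of Colq also without control 3. The adjusted p was then 0.0613 to 0.0747 for Dysf, 0.101 to 0.157 for Clcn1, 0.0563 to 0.121 for Ampd1 and 0.0687 to 0.160 for Colq.

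Myoglobin went the other way from most of the contractile genes. Mb had 154.5, 128.2 and 112.8 CPM in controls and 226.0, 285.9 and 251.0 CPM in ecko skin (log2 fold change 0.95, SE 0.12, edgeR adjusted p = 0.00553), and it passed in all 15 alternatives. The other 5 oxidative muscle genes tested did not pass. The cardiac markers Myh6, Nppa, Myl7 and Mybpc3 had at most 10 counts in any library and were not tested. The 8 cardiac markers summed to 28.7 to 55.3 CPM in controls and 23.5 to 26.3 CPM in ecko skin, and Actc1, which is also made by young skeletal muscle, was the largest part of it. Actc1 had 40.1, 15.4 and 27.0 CPM in controls and 12.0, 11.0 and 11.5 CPM in ecko skin (-1.25, SE 0.28, edgeR adjusted p = 0.0603). Schwann cell markers summed to 1255 to 1374 CPM in controls and 1252 to 1359 CPM in ecko skin.

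**Figure D5:**
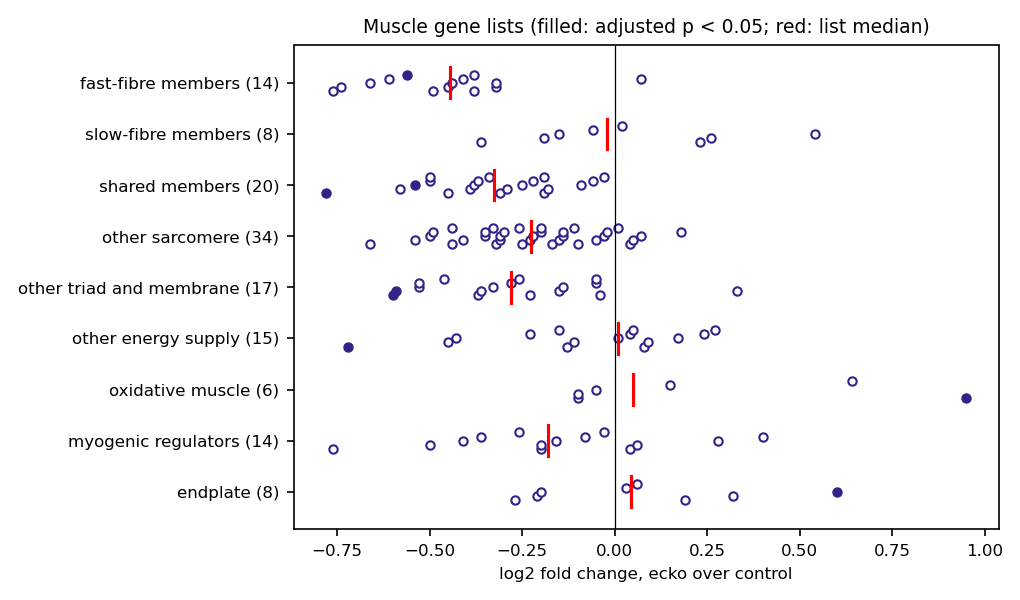
Each point is the log2 fold change of 1 gene (horizontal axis, log2 units) in 3 lists of the 43 genes and 6 further muscle lists, filled where the adjusted p was under 0.05, with the list median in red. The medians of the fast-fibre and shared lists are -0.45 and -0.32, and Mb lies farthest right at 0.95.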

How the data were processed

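The authors deposited 1 table of expected counts (estimated read counts per gene), per the file headers, with no scaling between libraries, and 10.5% of its values were not whole. RNA was extracted with Trizol from ear skin and captured by its poly(A) tail, per the labels' protocols, which name no strand-marking step. Per the submitters' processing notes, RSEM 1.3.1, HISAT2 2.2.1 and Bowtie2 2.4.5 were used with GRCm38.p6, in roles that are not stated. The read length and annotation release are not given in the sources used here.

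Counts were rounded, filtered with filterByExpr (minimum count 10, leaving 14866 of 18422 genes), scaled by TMM and tested with the edgeR 4.0.16 quasi-likelihood test in R 4.3.3. Benjamini-Hochberg adjustment ran over all genes tested, at a threshold of 0.05. The SE is the log2 fold change divided by the root of F. CPM used TMM-scaled totals. Groups came from the sample titles. Pairs of libraries of 1 group had 4.91 to 14.9 times the variance that sampling gives, so no 2 were the same library sequenced again. That comparison cannot show that the samples came from separate animals. A library with at least 500 Y-linked reads was taken as male. Transcript lengths and shared 100-base windows came from GENCODE M21 on GRCm38, and promoters and coordinates from RefSeq GRCm38.p6. The script was tested on simulated data.

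The members and lists were chosen with earlier results of these data known. Values per library are given for called genes, all myosin heavy chain genes, and, in each of the 3 larger lists, the 3 genes with the highest level per length and the 2 with the smallest p. Of the other lists, called genes and Mb are named, except that endothelial markers other than Kdr are given as a sum. Atp2a1, Pvalb, Sln, Myh3, Myog, Mylk4, Actc1 and the isoform pairs were named after their values were seen. The alternatives covered each library left out, a sex term, the replicate block, 2 other filters, a threshold of 0.1, DESeq2 1.42.0, limma-voom (limma 3.58.1), and upper-quartile and RLE factors. The male libraries alone and the test between sexes were added after the data were seen.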

Additional observations from a re-analysis of the deposited data

How the results depend on the processing

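Over all 15 alternatives the median log2 fold change ran from -0.56 to -0.23 for fast-fibre, -0.46 to -0.16 for shared and -0.12 to 0.06 for slow-fibre genes. The fast-fibre and shared medians were nearest 0 without control 1. These moves were smaller than the within-group SD of each list's level (0.244, 0.173 and 0.128). Control 1 itself widens that SD, so the comparison does not show that the medians were stable. The control SD was 0.33 for fast-fibre and 0.23 for shared genes, against 0.11 and 0.07 in ecko skin. Of the 43 genes, 38 kept their sign in all 15 alternatives. The number of muscle genes that fell, 3 in the main test, was 10 with DESeq2, 5 with no low-count filter, 8 with the sex term, 8 with the replicate block (Myh4, Pvalb, Actn3, Cacna1s and Sln added, against 0.868% of all genes), 8 at a threshold of 0.1, and 1 in the male libraries alone. It ranged from 1 (without ecko 1, 2 or 3) to 13 (without control 3). Myh8, the 1 gene that rose, was lost (0 genes higher) with upper-quartile factors, limma-voom and the male libraries alone, and the count ranged from 0 to 1 with 1 library left out. Over all genes, 262 calls became 426 with DESeq2, 451 at the threshold of 0.1, 174 in the male libraries alone, and 56 to 407 with 1 library left out. Signs changed with 1 library left out for Myh2 (-0.11 to 0.21), Tnni1 (-0.17 to 0.04), Tnnc1 (-0.18 to 0.15), Actn2 (-0.15 to 0.05) and Trdn (-0.16 to 0.10), and for Myh2 in the male libraries (-0.10). Single values of the new sign were -0.11 for Myh2 without control 3, 0.04 for Tnni1 and 0.07 for Trdn without ecko 1, -0.18 for Tnnc1 without control 2 and -0.02 without ecko 3, and 0.05 for Actn2 and 0.10 for Trdn without control 1. The cause was not tested. Same-numbered libraries were not treated as paired, since no pairing is given and their deviations correlated at 0.057, 0.072 and 0.162. The replicate block follows the numbering. The third library of each group is the female one, so the block also carries the difference between sexes. Of the 43 genes, Myl3 had the fewest counts, 27 to 49, and its value has the least depth.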
